A study of Mus musculus with 9 samples.

Results

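Polycomb proteins form 2 families of chromatin complexes that keep developmental genes silent. The genes described here are 9 of their subunits: Ezh1, Ezh2, Eed, Suz12, Jarid2, Mtf2 and Phf19 of Polycomb repressive complex 2 (PRC2), and Cbx2 and Cbx7 of Polycomb repressive complex 1 (PRC1). They were chosen by name, out of 18193 genes with a probe set of their own, by a rule that uses no measured value, although earlier results of these data were known when they were chosen. A probe set is a group of short array probes read as 1 value. The 9 genes had 29 probe sets annotated to 1 of them alone. The brightest probe set over the 9 arrays stood for each gene, and the others served as a check. Of the 9, 8 reached a signal of 50 on at least 2 arrays and were tested among 8716 such genes. Phf19 did not reach it and is given by its values only.

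The samples were mouse embryonic stem (ES) cells, which are cultured from the early embryo and can form its tissues. Undifferentiated cells, 1 array, were kept in 2000 units/mL leukemia inhibitory factor (LIF), the cytokine that holds ES cells in self-renewal, with 1 µg/mL doxycycline. The other 8 arrays were of cells differentiating without LIF, taken on D0.5, D1.5, D2.5 and D3.5, with 1 µg/mL doxycycline (Dox+) or without it (Dox-), 1 array for each day and medium. Doxycycline regulates, in these cells, a PKA (protein kinase A) that is active without its usual trigger, cyclic AMP. The labels do not settle whether the drug turns this kinase on or off, and the groups carry the name of the medium only. The labels name no ES cell line, no number of clones and no feeder cells. No group has a replicate. The tests below therefore use the days or the media as repeats, and their p-values measure only the spread between these arrays.

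PRC2 places methyl groups on lysine 27 of histone H3. EZH2 and its paralog EZH1 are its catalytic subunits, and EED and SUZ12 are core partners that the enzyme needs. JARID2, MTF2 and PHF19 are accessory subunits that help to bring PRC2 to its sites, many of which are CpG-rich promoters of developmental regulators. PRC1 reads the mark through a CBX protein: CBX7 is the CBX protein best known from pluripotent ES cells, while CBX2 is better known from cells that differentiate. Loss of PRC2 subunits leaves ES cells able to self-renew but poorly able to differentiate.

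The stretches just upstream of the genes are shown for the 4 PRC2 genes that fell between D0.5 and D3.5 and for Ezh2, which did not pass that test. RefSeq entries on GRCm38.p6 were found for 8 of the 9 genes, and Cbx2 had no entry. The 250 bases before the first listed start are given 5′ to 3′ on the gene's own strand. They lie at chr13:44730524-44730773 on the plus strand for Jarid2, at chr5:108065424-108065673 on the plus strand for Mtf2 and at chr11:79992856-79993105 on the plus strand for Suz12. They lie at chr7:89980977-89981226 on the minus strand for Eed and at chr6:47595031-47595280 on the minus strand for Ezh2. Capitals mark matches, on either strand, to 4 motifs: the half-site of the cyclic AMP response element, which CREB, a PKA target, binds (TGACG), the box that the factor NF-Y binds (CCAAT), the box that Sp family factors bind (GGGCGG), and an E2F-like site (TTTNNCGC). They are called below the CRE half-site, the CCAAT box, the GC box and the E2F-like site.
Jarid2: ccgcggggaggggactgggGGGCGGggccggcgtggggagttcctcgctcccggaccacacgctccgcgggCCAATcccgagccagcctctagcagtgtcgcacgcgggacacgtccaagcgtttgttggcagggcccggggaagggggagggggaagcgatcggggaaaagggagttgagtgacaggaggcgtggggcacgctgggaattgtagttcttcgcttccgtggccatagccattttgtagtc
Mtf2: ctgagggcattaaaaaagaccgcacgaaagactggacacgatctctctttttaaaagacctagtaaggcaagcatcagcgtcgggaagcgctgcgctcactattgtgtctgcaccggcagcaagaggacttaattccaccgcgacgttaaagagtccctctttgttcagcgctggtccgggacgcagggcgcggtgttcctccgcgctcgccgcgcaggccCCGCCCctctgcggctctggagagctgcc
Suz12: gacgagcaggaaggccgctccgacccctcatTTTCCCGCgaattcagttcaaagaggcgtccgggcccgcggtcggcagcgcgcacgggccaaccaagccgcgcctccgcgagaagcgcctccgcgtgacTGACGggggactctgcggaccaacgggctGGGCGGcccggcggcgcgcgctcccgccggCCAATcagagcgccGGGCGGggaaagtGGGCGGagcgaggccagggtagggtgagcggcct
Eed: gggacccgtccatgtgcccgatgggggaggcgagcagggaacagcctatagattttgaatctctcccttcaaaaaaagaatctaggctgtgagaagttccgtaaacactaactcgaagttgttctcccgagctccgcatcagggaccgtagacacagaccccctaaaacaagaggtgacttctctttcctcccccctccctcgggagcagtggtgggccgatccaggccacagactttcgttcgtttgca
Ezh2: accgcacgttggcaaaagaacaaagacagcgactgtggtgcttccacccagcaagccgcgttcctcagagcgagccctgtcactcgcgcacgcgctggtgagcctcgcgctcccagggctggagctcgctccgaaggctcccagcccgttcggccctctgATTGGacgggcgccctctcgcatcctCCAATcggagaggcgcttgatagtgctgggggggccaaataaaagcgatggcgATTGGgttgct

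No motif was shared by the 4 genes that fell: Suz12 held 1 CRE half-site, 1 CCAAT box, 3 GC boxes and 1 E2F-like site, Jarid2 held 1 CCAAT box and 1 GC box, Mtf2 held 1 GC box, and Eed held none of the motifs. Ezh2 held 3 CCAAT boxes and none of the others. Jarid2 and Mtf2 have a second listed start, and the second window of Jarid2 held 1 CRE half-site that overlaps a GC box. Over all listed starts the 8 genes had 10 windows. Of these, 3 held a CRE half-site, 5 a CCAAT box, 6 a GC box and 2 an E2F-like site. Of 32841 upstream windows of the same length in the mouse genome, 17.8% held a CRE half-site, 33.9% a CCAAT box, 32.7% a GC box and 4.28% an E2F-like site. The windows shown were rich in CpG: 37 in Suz12, 23 each in Jarid2, Mtf2 and Ezh2, and 12 in Eed, against a median of 6 over all windows. The second window held 22 in Jarid2 but only 2 in Mtf2. Matches to letters are descriptions of these windows and show no binding.

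All values below are array signals, scaled by the depositors so that the trimmed mean of each array is 100. Differences are on the log2(signal + 16) scale, on which -1 is a halving and low signals change less than their ratio. The 9 arrays were alike in technical measures: between 41.6% and 44.2% of genes reached a signal of 50, and the 3′ to 5′ ratio of Actb, a measure of RNA integrity, lay between 1.60 and 1.98. The summed signal of 9 markers of pluripotent ES cells was 18881 in undifferentiated cells, from 6559 to 16728 in Dox+ and from 1657 to 15823 in Dox-, with no marker at 0 on any array. That of 8 proliferation genes stayed between 12671 and 17132. Markers of streak and mesoderm were low in undifferentiated cells, at a sum of 110.0, and reached 1628 in Dox+ and 5460 in Dox-. The arrays read bulk RNA, so fewer cells of a type and less RNA per cell cannot be told apart.

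**Figure D1:**
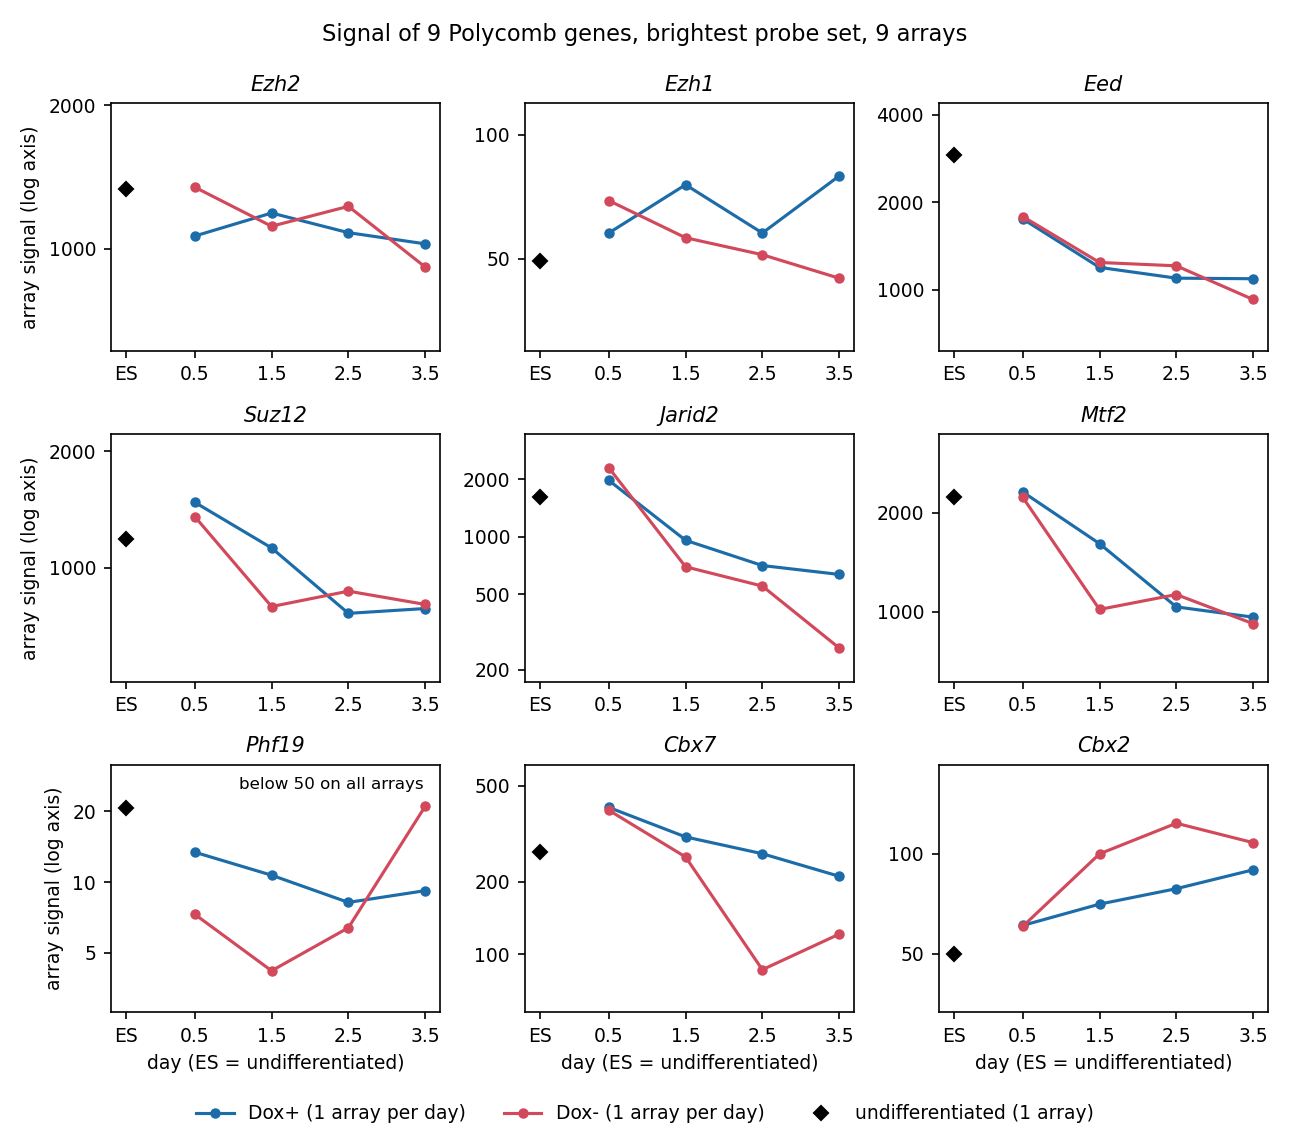
Array signal (log axis, a separate range for each gene) of the brightest probe set of the 9 genes against day of differentiation, with 1 array per point; blue is Dox+, red is Dox- and the black diamond is the undifferentiated array. Jarid2, Mtf2, Suz12 and Eed are lower on D3.5 than on D0.5 in both media, Cbx7 parts by medium from D2.5, and Phf19 is between 4.2 and 21.0 on all 9 arrays.

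Over both media, 5 of the 8 tested subunits fell from D0.5 to D3.5 and none rose at an adjusted p under 0.05 (limma, Benjamini-Hochberg over all 8716 genes). Of all genes tested, 10.2% fell and 11.8% rose by the same rule. The median difference of the 8 was -0.81, against 0.02 over all tested genes. Jarid2, Mtf2, Suz12, Eed and Cbx7 fell, and the catalytic subunits Ezh2 and Ezh1 and the PRC1 subunit Cbx2 did not pass. The same comparison called 7 of 9 pluripotency markers lower and 3 of 8 proliferation genes lower. The part of the change in cell state in the members' values was not tested.

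Jarid2, the accessory subunit that binds nucleosomes and helps PRC2 to its sites in ES cells, changed by the largest amount among the members. Its signal was 1613 in undifferentiated cells, then 1978, 958, 706 and 634 in Dox+ from D0.5 to D3.5, and 2306, 696, 551 and 261 in Dox- on the same days. The signal was highest on D0.5 in both media and lowest on D3.5 in both. It fell by 2.34 ± 0.31 (SE) from D0.5 to D3.5, a 5.07-fold difference on this scale (adjusted p = 0.00738, limma). The difference was -1.62 in Dox+ and -3.07 in Dox-. Both other Jarid2 probe sets, bright on all 9 arrays, gave -2.16 and -2.22 as the mean of both media. The brightest probe set and 1 of the others have names that Affymetrix gives to probe sets that may match more than 1 transcript; the third does not.

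Mtf2 encodes a Polycomb-like protein that binds unmethylated CpG-rich DNA and recruits PRC2. Its signal was 2238 in undifferentiated cells, 2313, 1609.7, 1033 and 961 in Dox+, and 2228, 1015, 1127 and 918 in Dox-. Both D0.5 arrays stood near the undifferentiated level and both D3.5 arrays below it. It fell by 1.26 ± 0.19 (SE; adjusted p = 0.00954, limma), and the values of the media were close, at -1.25 in Dox+ and -1.26 in Dox-. The 3 other bright probe sets gave -1.45, -1.29 and -1.54.

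Suz12, the core subunit that holds the complex together, had a signal of 1186 in undifferentiated cells. In Dox+ it was 1474, 1124, 762 and 784 over the 4 days, and in Dox- it was 1354, 793, 869 and 803. The D0.5 arrays were above the undifferentiated array and all D2.5 and D3.5 arrays were below it. Suz12 fell by 0.82 ± 0.17 (SE; adjusted p = 0.0232, limma). Its other 2 probe sets that were bright on all arrays gave -0.83 and -0.93. As with Jarid2, the brightest probe set and 1 of these 2 have names for probe sets that may match more than 1 transcript.

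Eed, the subunit that binds trimethylated lysine 27 and stimulates the enzyme, was the member furthest below the undifferentiated array on D0.5. Its signal was 2912 in undifferentiated cells, 1754, 1195, 1098 and 1093 in Dox+, and 1787, 1243, 1210.1 and 927 in Dox-. Against the undifferentiated array it differed by -0.73 in Dox+ and -0.70 in Dox- on D0.5, when Jarid2 was 0.29 and 0.51 above that array and Mtf2 stood at 0.05 and -0.01. These are differences of single arrays and share 1 undifferentiated array. Eed fell by a further 0.80 ± 0.12 (SE) between D0.5 and D3.5 (adjusted p = 0.00932, limma). It has 1 bright probe set, so no second probe set checks the value; averaged with its dim probe set, Eed did not pass (adjusted p = 0.143).

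Ezh2, the main catalytic subunit of dividing cells, stayed between 915 and 1346 on the 9 arrays. Its signal was 1334 in undifferentiated cells, 1063, 1188, 1080.1 and 1023 in Dox+, and 1346, 1114, 1227 and 915 in Dox-. The arrays of D0.5 and D3.5 lay near each other in Dox+ and further apart in Dox-. The difference from D0.5 to D3.5 was -0.30 ± 0.15 (SE; 95% interval -0.66 to 0.05; adjusted p = 0.185, limma). Ezh1, the paralog better known from resting cells, was dim, between 44.9 and 79.5 on the 9 arrays. Its difference was -0.06 (95% interval -0.66 to 0.54; adjusted p = 0.886, limma).

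Phf19, a Polycomb-like relative of Mtf2, read 20.6 in undifferentiated cells, 13.4, 10.7, 8.2 and 9.2 in Dox+, and 7.3, 4.2, 6.4 and 21.0 in Dox-. Its second probe set stayed at or below 8.6. No array reached 50, so a level of Phf19 RNA was not measurable here and no difference was tested.

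Cbx7 fell over the days and Cbx2 pointed the other way. Cbx7 had a signal of 265 in undifferentiated cells, 406, 307, 261 and 211 in Dox+, and 396, 253, 86.5 and 121 in Dox-. Both D0.5 arrays were above the undifferentiated array, and the D2.5 and D3.5 arrays of Dox- were the lowest of all. The fall was 1.24 ± 0.33 (SE; adjusted p = 0.0426, limma). This call was lost without D1.5 (adjusted p = 0.0616), without the filter on low signal (0.0614), without the mean-variance trend (0.0583) and with the mean of all 3 probe sets, 2 of them dim (0.117).

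Cbx2 had a signal of 50.0 in undifferentiated cells, 60.9, 70.6, 78.6 and 89.6 in Dox+, and 60.5, 100.1, 124 and 108 in Dox-. All 8 differentiating arrays were above the undifferentiated one. The difference between D0.5 and D3.5 was 0.58 ± 0.19 (SE; 95% interval 0.11 to 1.05), with an adjusted p of 0.0813 (limma), so Cbx2 did not pass the test. Cbx2 and Cbx7 have 1 bright probe set each.

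**Figure D2:**
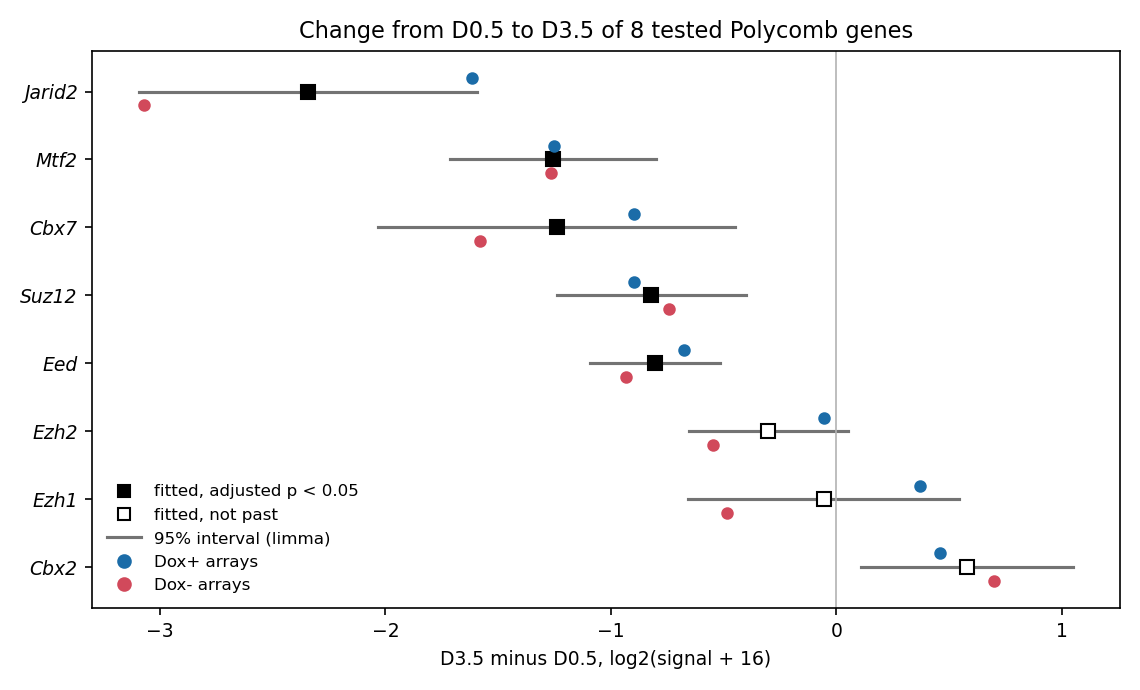
Difference between D3.5 and D0.5 on the log2(signal + 16) scale for the 8 tested genes: squares are fitted values over both media (filled where the adjusted p is under 0.05) with 95% intervals, and dots are the single-array differences in Dox+ (blue) and Dox- (red). Jarid2 is furthest from 0 at -2.34, and Cbx2 is at 0.58.

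Against the undifferentiated array, the D3.5 array of Dox+ was at least 2-fold lower for Eed, Jarid2 and Mtf2 (-1.40, -1.32 and -1.21), where 6.34% of all tested genes were. The D3.5 array of Dox- was at least 2-fold lower for Eed, Jarid2, Mtf2 and Cbx7 (-1.63, -2.56, -1.27 and -1.03), where 8.86% of all tested genes were. Suz12 stood at -0.59 and -0.55 and Ezh2 at -0.38 and -0.54. Each is a difference of 2 single arrays, with no test.

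Fitted as straight lines through the 4 days of each medium, Jarid2, Cbx7 and Eed fell in Dox-, by 0.95 ± 0.13, 0.61 ± 0.14 and 0.28 ± 0.07 (SE) per day (adjusted p = 0.0074, 0.0306 and 0.0346, limma). In that medium 7.25% of all tested genes fell and 8.67% rose. In Dox+ no member passed, where 0.0574% of all tested genes fell at an adjusted p under 0.05. At an unadjusted p under 0.05 there were 4 of 8 members, beside 1889 of 8716 tested genes. The 4 were Jarid2, Mtf2, Suz12 and Eed, with slopes of -0.53, -0.44, -0.32 and -0.21 per day. These slopes use the same arrays as the comparison of days. In Dox- Jarid2 alone passed without D0.5, Cbx7 alone without D3.5, Jarid2 and Cbx7 without D2.5, and Jarid2, Eed and Mtf2 without D1.5. Suz12 also passed with the mean of its brighter probe sets (adjusted p = 0.0443, limma), an alternative chosen after seeing the data. That mean takes in 1 Suz12 probe set that reached 50 on only 2 arrays. Eed missed the threshold under quantile normalization (adjusted p = 0.0520) and without the mean-variance trend (0.0545).

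The media were then compared. Averaged over the 4 days, no member passed (limma adjusted p from 0.416 to 0.988; 1 of 8 at an unadjusted p under 0.05), and 0% of all tested genes did, with 1026 of 8716 at an unadjusted p under 0.05. Nor did the difference of the media change steadily with day for any member (limma adjusted p from 0.598 to 0.907; 0 of 8 at an unadjusted p under 0.05). Again 0% of all tested genes passed, with 736 at an unadjusted p under 0.05. A slope that passed in Dox- and not in Dox+ is thus not shown to differ between the media.

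On the last 2 days, D2.5 and D3.5, in a comparison chosen with earlier results of these data known, Cbx7 was lower in Dox- and no other member passed. Of all tested genes, 4.35% were lower in Dox- and 2.83% higher. On those days Cbx7 read 86.5 and 121 in Dox- and 261 and 211 in Dox+. The difference was -1.08 ± 0.19 (SE; adjusted p = 0.0214, limma), and Cbx7 was close between the media on D0.5, at -0.04. This fit assumes no media difference on D0.5 and D1.5, and whatever difference there is on those days enters its error; with a separate media term for them, Cbx7 still passed (adjusted p = 0.0436, limma). The call was lost without D0.5 (adjusted p = 0.0741), without D2.5 (0.0931), with the arrays of D2.5 and D3.5 alone (0.112) and with the mean of all probe sets (0.166). On the same days the pluripotency markers summed to 8598 and 6559 in Dox+ and to 4382 and 1657 in Dox-, the streak and mesoderm markers to 91.3 and 1628 in Dox+ and to 5460 and 2867 in Dox-, and the fibroblast markers to 109 and 105 in Dox+ and to 105 and 368 in Dox-. Of the 9 pluripotency markers, 3 were called lower in Dox- on these days and 1, Klf4, was called higher, at 1.28 (adjusted p = 0.0459, limma). The part of these marker levels in the values of Cbx7 and Jarid2 was not tested.

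Jarid2 was also lower in Dox- on both days, at 551 and 261 against 706 and 634, but its difference of -0.79 ± 0.23 (SE) did not pass (adjusted p = 0.0926, limma). It passed without D2.5, where it is the D3.5 difference of -1.23 (adjusted p = 0.0320). The intervals of the core subunits held 0: 0.01 for Ezh2 (95% interval -0.33 to 0.35), -0.05 for Eed (-0.32 to 0.22) and 0.11 for Suz12 (-0.28 to 0.50). The Suz12 value turned to -0.22 with the mean of its brighter probe sets. Of these, 1 dim probe set (12.1 to 50.2 on the 9 arrays) gave -0.92. The others gave 0.11, -0.12, -0.17 and -0.004. Mtf2 was at 0.03 (-0.44 to 0.50), and at -0.04 with the mean of its brighter probe sets. Cbx2 was at 0.40 (-0.06 to 0.86) and Ezh1 at -0.39 (-0.90 to 0.12).

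Single days showed where the media parted. On D2.5 Cbx7 was at least 2-fold lower in Dox- (-1.44), as were 4.45% of all tested genes. On D3.5 Jarid2 was at least 2-fold lower (-1.23), as were 4.8% of all tested genes. On D0.5 all 8 differences were between -0.12 and 0.34. On D1.5 Mtf2 was at -0.66, Suz12 at -0.49, Jarid2 at -0.45 and Cbx2 at 0.42. By D2.5 Mtf2 and Suz12 were at 0.12 and 0.19. With 1 array on each side none of these values has a test.

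**Figure D3:**
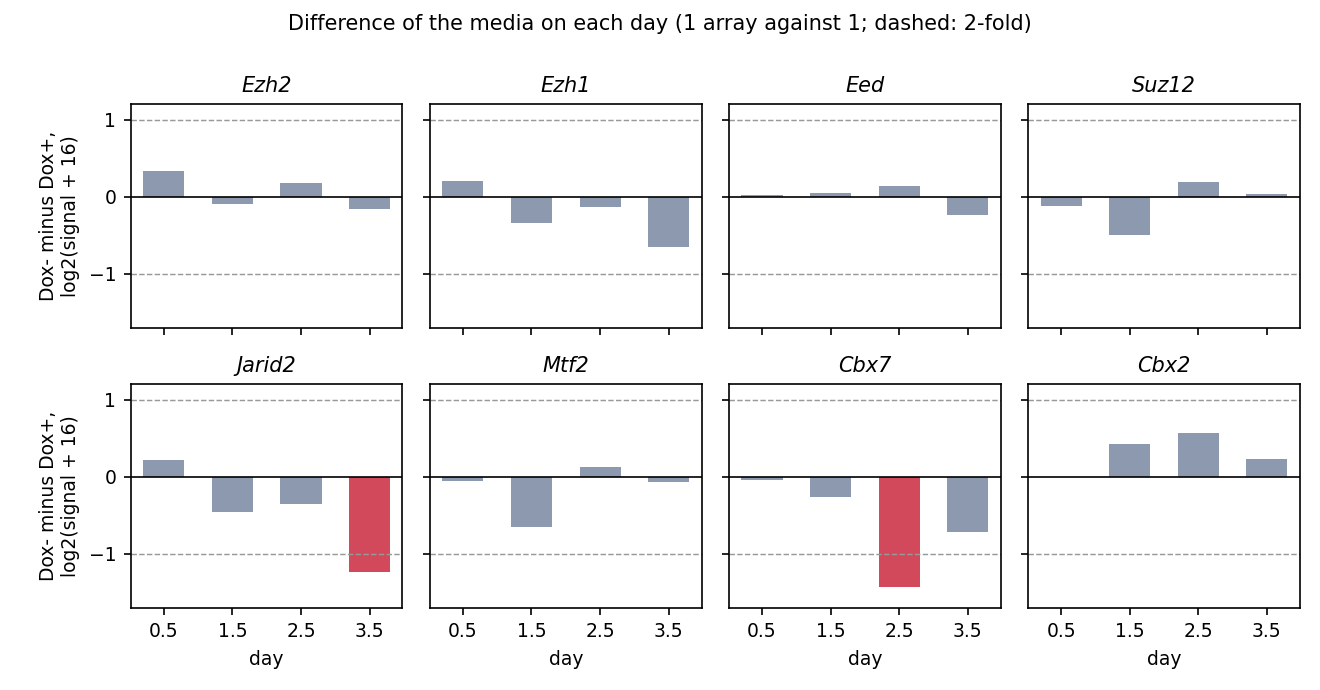
Dox- minus Dox+ on each day, log2(signal + 16), for the 8 tested genes; each bar is 1 array against 1, dashed lines mark 2-fold and red bars pass it. Mtf2 and Suz12 differ mainly on D1.5, Cbx7 on D2.5 and Jarid2 on D3.5.

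The D1.5 difference came from the size of the first step. From D0.5 to D1.5 in Dox-, Jarid2 changed by -1.71 and Mtf2 by -1.12, both at least 2-fold lower, as were 4.07% of all tested genes. In Dox+ the step was -1.03 for Jarid2, which alone of the members was at least 2-fold lower there, as were 2.36% of all tested genes. Mtf2 changed by -0.52 in that step and by -0.63 from D1.5 to D2.5. Suz12 likewise changed by -0.76 in Dox- in the first step, and by -0.39 and -0.55 in the first and second steps in Dox+.

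The D1.5 array of Dox- was close to the D2.5 array of Dox+ for these genes. Between those arrays Jarid2 differed by -0.02, Mtf2 by -0.03, Suz12 by 0.06, Cbx7 by -0.04, Ezh2 by 0.04, Ezh1 by -0.03, Eed by 0.18 and Cbx2 by 0.30. The median size of the difference was 0.04 for the 8 members, against 0.38 between the media on D1.5 itself. Over all tested genes these medians were 0.15 and 0.19. Of the members, 7 of 8 were nearer to the D2.5 array than to the D1.5 array of Dox+, as were 59.6% of all tested genes. These 3 arrays were set beside each other with their values already known, as a description.

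**Figure D4:**
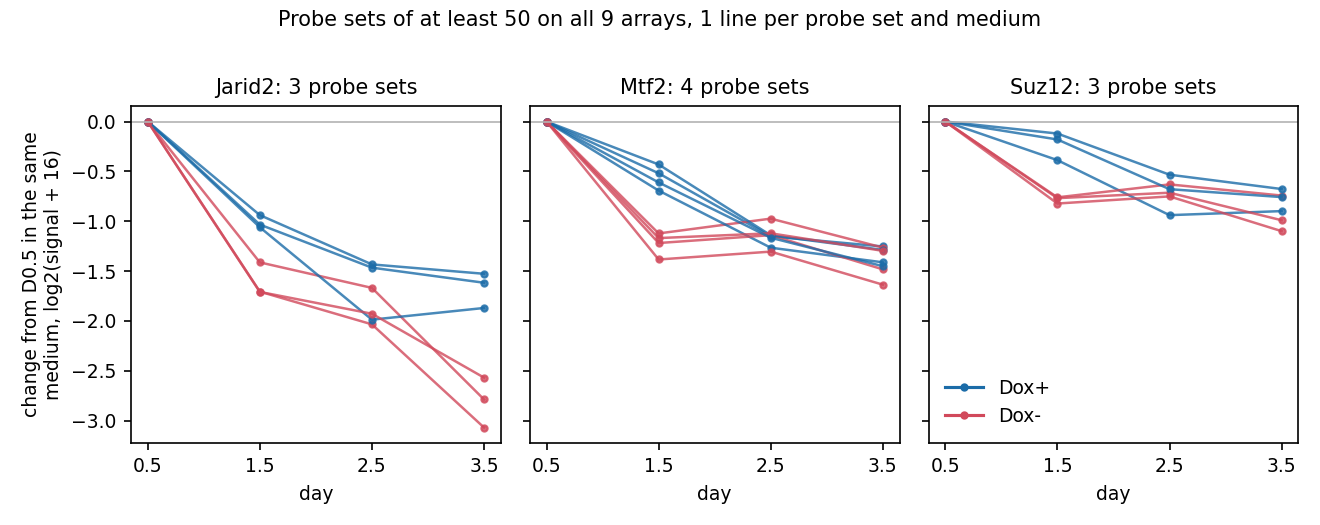
Change from D0.5 in the same medium, log2(signal + 16), for each probe set of Jarid2, Mtf2 and Suz12 that reached 50 on all 9 arrays; 1 line per probe set and medium, blue Dox+ and red Dox-. The 4 Mtf2 and 3 Suz12 probe sets are all lower in Dox- on D1.5 and near each other by D2.5, and the 3 Jarid2 probe sets end lowest in Dox-.

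The probe sets of 1 gene share their RNA, so they check the measurement and not the biology. On D1.5 the 4 bright Mtf2 probe sets were at -0.66, -0.62, -0.79 and -0.70 between the media, the 3 bright Suz12 probe sets at -0.49, -0.52 and -0.60, and the 3 Jarid2 probe sets at -0.45, -0.63 and -0.73. All 10 pointed the same way.

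The courses of the members over the 9 arrays were set beside each other by Pearson's r on log2(signal + 16). Among the 4 PRC2 genes that fell, r was 0.97 between Mtf2 and Suz12, 0.92 between Jarid2 and Mtf2, 0.87 between Jarid2 and Suz12, 0.85 between Eed and Mtf2, 0.80 between Eed and Jarid2, and 0.72 between Eed and Suz12. Cbx7, which also fell, had r from 0.49 (Eed) to 0.81 (Jarid2) with these 4, and Ezh2, which did not pass, from 0.53 (Suz12) to 0.72 (Eed). Cbx2 had negative r with the 4, from -0.77 (Suz12) to -0.86 (Mtf2). The 4 were grouped because they fell on these same arrays, so high r among them follows in part from that choice. The 9 points are a time course in shared arrays, so these values are descriptions. Of all tested genes, the 3 most like Jarid2 were Msh6, a DNA mismatch repair gene, Rrn3 and Itgae (r from 0.982 to 0.984). Those most like Mtf2 were Ttn, Cep76 and Gm13238 (0.989 to 0.992), and those most like Suz12 were Med13l, Mep1b and Dpf1 (0.975 to 0.992). For Eed they were Laptm5, Icam1 and Rbm14 (0.981 to 0.986), and for Cbx7 Mtss1, Tlr2 and Mllt11 (0.968 to 0.970). For Cbx2 they were Tceal8, Rc3h1 and Ttc9c (0.981 to 0.986), for Ezh2 Qrsl1, Cherp and Qtrt2 (0.934 to 0.946), and for Ezh1 Ddb2, R3hdm1 and Matr3 (0.881 to 0.930). Some of these genes were very dim on part of the arrays, such as Ttn, Itgae and Mep1b, with lowest signals of 1.1, 1.2 and 0.2.

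The other genes of the complexes were set beside the members. Of 8 further PRC2 genes 6 were tested. Epop, an accessory subunit linked to elongin, fell by 1.07 ± 0.27 (SE; adjusted p = 0.0386, limma) between D0.5 and D3.5, where 10.2% of all tested genes fell. In undifferentiated cells Epop read 80.1, in Dox+ it went from 55.2 on D0.5 to 22.0 on D3.5, and in Dox- from 65.8 to 18.8. On the arrays after D0.5 it read at most 34.3, below the signal that the filter asks for. Epop thus passed the filter only through arrays where it was high, and its fall is a description. The histone-binding subunits Rbbp4 and Rbbp7 were at -0.21 and 0.20 and the accessory subunit Aebp2 at -0.30, none past the test. No further PRC2 gene passed between the media on D2.5 and D3.5 (limma). At an unadjusted p under 0.05 there were 2 of 6, beside 2139 of 8716 tested genes.

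Of 26 genes of PRC1 and its variant complexes 17 were tested, and 3 rose and 2 fell between D0.5 and D3.5, where 11.8% of all tested genes rose and 10.2% fell. Yaf2, Auts2 and Bcor, all of variant PRC1, rose by 1.64 ± 0.15, 0.73 ± 0.15 and 0.71 ± 0.18 (SE; adjusted p = 0.0038, 0.0212 and 0.0386, limma). Phc1, a polyhomeotic subunit of the PRC1 form that holds a CBX protein, and L3mbtl2 fell by 1.44 ± 0.34 and 0.77 ± 0.18 (adjusted p = 0.0314 and 0.0328). The signal of Yaf2 was 134 in undifferentiated cells, from 157 to 448 in Dox+ and from 158 to 612 in Dox-. The ring subunit Rnf2, an E3 ligase for histone H2A, was at -0.29 and did not pass.

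On D2.5 and D3.5, 3 of these 17 genes differed between the media, 2 of them lower in Dox- and 1 higher, where 4.35% of all tested genes were lower and 2.83% higher. Cbx6 and Phc1 were lower in Dox-, like Cbx7, at -1.26 ± 0.20 and -1.09 ± 0.12 (SE; adjusted p = 0.0159 and 0.00516, limma). Phc2, the paralog of Phc1, was higher at 1.14 ± 0.20 (adjusted p = 0.0211). On D2.5 and D3.5 Phc1 read 1842 and 1439 in Dox+ and 1001 and 573 in Dox-, and Phc2 read 211 and 322 in Dox+ and 620.2 and 573 in Dox-. The 2 paralogs thus differed between the media in opposite directions.

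**Figure D5:**
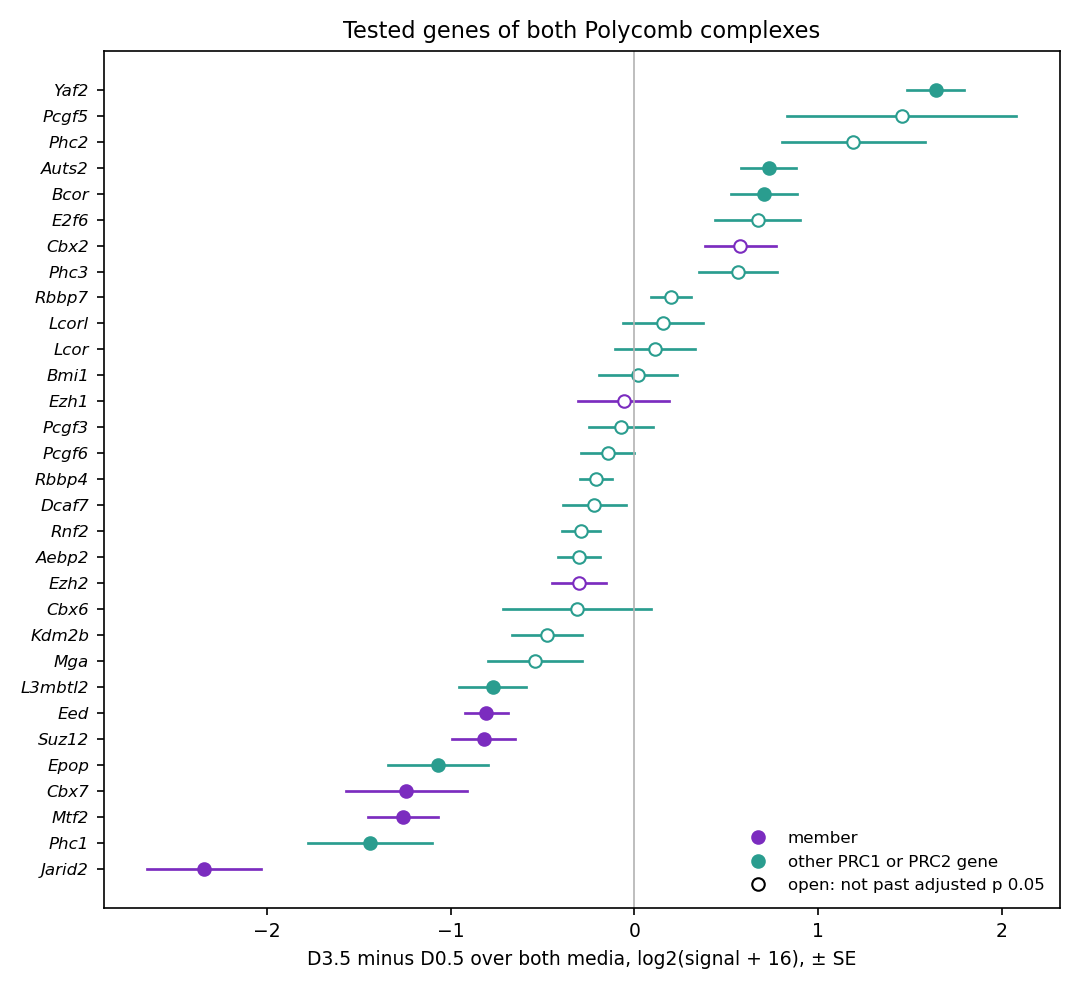
Fitted difference between D3.5 and D0.5 over both media, log2(signal + 16) ± SE, for the 31 tested genes of PRC1 and PRC2; purple marks the members described here, green the other genes, and filled points an adjusted p under 0.05. Jarid2 is the lowest at -2.34 and Yaf2 the highest at 1.64.

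Of 17 genes for enzymes that work against Polycomb, namely lysine 27 demethylases, the Polycomb deubiquitinase and the lysine 4 methyltransferase complexes, 16 were tested between D0.5 and D3.5. Of these 4 fell, 1 rose and 11 did not pass, where 10.2% of all tested genes fell and 11.8% rose. Ash2l and Dpy30, shared subunits of the lysine 4 methyltransferases, and the catalytic subunits Kmt2c and Setd1b fell by 1.13, 0.59, 0.91 and 0.68. Men1, a partner of the Kmt2 enzymes, rose by 0.64 (limma adjusted p from 0.00874 to 0.0322 for the 5). The demethylases Kdm6a and Kdm6b were at -0.49 and 0.66 and did not pass. Between the media on D2.5 and D3.5 no gene of this list passed (limma). There, 2 of 16 were at an unadjusted p under 0.05, beside 2139 of 8716 tested genes.

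A list of 47 developmental genes known as textbook Polycomb targets in ES cells was read with the subunits, and 43 of them had a probe set. Over those 43 the median difference of Dox- from Dox+ was 0.03, 0.18, 0.87 and 0.93 from the first to the last day, where the median of all tested genes was -0.04, 0.01, 0.01 and 0.00. Against the undifferentiated array the median on D3.5 was 0.28 in Dox+ and 1.03 in Dox-. Counted at 2-fold on D2.5, 20 of the 43 targets were higher in Dox- and 1 was lower, beside 3.41% and 4.45% of all tested genes. On D3.5 the counts were 20 and 2, beside 4.13% and 4.8%. These shares, and the medians of all tested genes above, are over genes that passed the filter on low signal. The 43 targets were not filtered, so the values beside them are not those of like genes. Only 17 of the 43 passed the filter on low signal. Of these Wnt5a and Cdx2 had the largest differences between the media on D2.5 and D3.5, and the endoderm regulator Foxa2 was at -0.04. Wnt5a and Cdx2 reached 50 only on the D2.5 and D3.5 arrays of Dox-, so they passed the filter only through the group where they were high. Their differences are thus descriptions. Wnt5a, a secreted signal, read 5.5 in undifferentiated cells, 6.7, 3.6, 0.6 and 49.6 in Dox+, and 7.1, 7.8, 368 and 1132 in Dox-. Cdx2, a regulator of the posterior body, read 5.2 in undifferentiated cells, at most 42.0 in Dox+, and 5.1, 13.1, 225 and 915 in Dox-. On those days Cbx7 was the only member that passed the test between the media. Whether the subunits bear on the targets was not tested, and no histone mark or protein was measured.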

How the data were processed

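The 9 arrays were Affymetrix 3′ expression arrays of total RNA. The deposited table holds 1 linear intensity per probe set and array, made with GCOS per the submitters' processing notes; its values have a trimmed mean of 100 on every array. Probe sets were named from the platform annotation: of 45101, 34945 had 1 gene symbol, 932 several and 9224 none used here, and 34741 were matched to RefSeq by gene ID. The brightest probe set stood for each gene. Signals were taken as log2(signal + 16), and genes with at least 50 on at least 2 of 9 arrays were kept. Models were fitted across 8716 genes with limma 3.58.1 in R 4.3.3 (lmFit, eBayes with trend, Benjamini-Hochberg, call at 0.05) and tested on simulated data. The day was a block for the media; the medium was a covariate for the days. No depth is known for arrays; their number limits the precision.

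The members, the gene lists and the comparison over the last 2 days were chosen with earlier results of these data known. Named genes were the members, the 3 genes most alike to each member, and a choice of genes from the other lists. The called genes of the marker and Polycomb target lists were not all named. The lists of primed epiblast, fibroblast, extraembryonic endoderm and neural markers gave sums of 1597 to 7972, 30.3 to 368, 16.2 to 192 and 86.3 to 272 over the differentiating arrays. Alternatives covered the pseudocount, the filter, quantile normalization, other probe set summaries, the trend and leaving out days.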

Additional observations from a re-analysis of the deposited data

Results flagged for a closer look

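Ezh1 differed between the media in its direction over the days: from D0.5 to D3.5 it was 0.37 higher in Dox+ and changed by -0.49 in Dox- on the log2(signal + 16) scale. Each value is a difference of 2 single arrays of a dim probe set (44.9 to 79.5 over the 9 arrays). The 4 arrays of Dox+ read 57.8, 75.7, 57.8 and 79.5, and those of Dox- read 69.3, 56.3, 51.2 and 44.9. The steady change of the media difference with day was -0.24 ± 0.12 (SE) per day for Ezh1 and did not pass (adjusted p = 0.643, limma).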

How the results depend on the processing

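Of 578 values recomputed for single members under the alternatives, 538 kept their direction and their side of the threshold, 19 were no longer past it, 3 newly passed it and 18 changed sign; the cause was not tested. Jarid2, Mtf2 and Suz12 stayed past the threshold between D0.5 and D3.5 under all 10 alternatives, Eed under 9 and Cbx7 under 6. With the mean of all probe sets, which takes in dim ones, 3 members passed between D0.5 and D3.5, 1 in the Dox- slope and 0 on D2.5 and D3.5, where the arrays of those days alone also gave 0. That mean left 0 members 2-fold apart between the media on D2.5, where 1 was as reported. Against the undifferentiated array it left 0, 1 and 1 in Dox+ and 1, 1 and 2 in Dox- on D1.5, D2.5 and D3.5. As reported, 1, 3 and 3 members were lower in Dox+ and 3, 3 and 4 in Dox-, with 1 higher in Dox- on D2.5. On D3.5, 6.34% of all tested genes were lower as reported in Dox+ and 8.86% in Dox-. Leaving out a day gave 4 to 5 members between D0.5 and D3.5, 1 to 3 in the Dox- slope (4 with the mean of the brighter probe sets) and 0 to 1 on D2.5 and D3.5. Signs changed only for differences that did not pass as reported. On leaving out days, the media difference over all days ran from -0.023 to 0.14 for Ezh2, -0.050 to 0.074 for Eed, -0.19 to 0.033 for Suz12 and -0.26 to 0.0014 for Mtf2. Its change per day ran from -0.14 to 0.056 for Eed and -0.094 to 0.29 for Cbx2. The Dox+ slope of Ezh2 ran from -0.11 to 0.012, and the Dox- slope of Suz12 from -0.32 to 0.0090. The difference on D2.5 and D3.5 ran from -0.16 to 0.18 for Ezh2, -0.23 to 0.14 for Eed and -0.065 to 0.12 for Mtf2. Quantile normalization turned Eed over all days to 0.018. With the mean of all probe sets Suz12 turned to -0.059 per day and to -0.23 on D2.5 and D3.5, and Mtf2 to -0.055. With the mean of the brighter probe sets, an alternative chosen after seeing the data, these were -0.028, -0.22 and -0.043. Over all genes, calls between D0.5 and D3.5 ran from 1326 to 1968 (1917 as reported), in the Dox- slope from 219 to 1380 (1388), in the Dox+ slope from 0 to 30 (10), and on D2.5 and D3.5 from 164 to 791 (626). The media were compared within days; without the day as a block no member passed over the 4 days, as in the fit with it. The low signals of Ezh1 (at most 79.5) and Phf19 (at most 21.0) limit what their values show.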
